A study of Mus musculus with 18 samples.

Results

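The transforming growth factor beta (TGF-beta) and activin genes described here are 9 of the 19197 genes measured: the ligand genes Tgfb1, Tgfb2, Tgfb3, Inhba and Gdf15, the latent TGF-beta binding protein gene Ltbp2, and the receptor genes Tgfbr1, Tgfbr2 and Tgfbr3. They were picked by gene symbol, with earlier results of these data known, and all 9 symbols are in the files. Messenger RNA was read in 18 samples of the cardiac apex from mice of the inbred strain C57BL/6, taken 1 day after surgery. The hearts form 3 groups of 6: mice with myocardial infarction (MI) treated with DCA at 10 mg/kg per day (MI_DCA), mice with MI given vehicle (MI_vehicle), and sham-operated mice given vehicle (sham_vehicle). DCA is not spelled out in the labels and is read here as the secondary bile acid deoxycholic acid, since the title of the study pairs it with TGR5, a receptor for bile acids at the cell surface. No allele or transgene is named for any group, and neither age nor sex of the mice is stated in the labels. Hearts are numbered by the replicate in their labels, and the numbers were not taken to pair hearts across groups. The study asked whether DCA changes the response to infarction. Levels are FPKM, reads per length of transcript and per mapped read of the library, as deposited by the authors.

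TGF-beta is secreted in a latent form, held by its own propeptide and tethered to the matrix by latent TGF-beta binding proteins, and is freed by integrins, proteases and thrombospondin. The active ligand binds the type II receptor, encoded by Tgfbr2, which recruits and phosphorylates the type I receptor, encoded by Tgfbr1. The type I receptor then passes the signal to Smad2 and Smad3, and betaglycan, encoded by Tgfbr3, presents ligand to the type II receptor. Activin A, a dimer of the Inhba product, signals through other receptors of the same family to the same Smads, while GDF15 is a distant family member released by stressed cells that acts through GFRAL in the hindbrain. In the infarcted heart this pathway is known for damping inflammation and for turning fibroblasts into matrix-making myofibroblasts.

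In GRCm38.p6 the TGF-beta ligand genes lie at chr7:25687002-25705077 (Tgfb1), chr1:186622787-186709697 (Tgfb2) and chr12:86056743-86079041 (Tgfb3), Inhba at chr13:16004256-16031609, Gdf15 at chr8:70629393-70632470 and Ltbp2 at chr12:84783212-84876558. The receptor genes lie at chr4:47353222-47414926 (Tgfbr1), chr9:116087695-116175363 (Tgfbr2) and chr5:107106567-107289629 (Tgfbr3). Of the 9 genes, 7 have a promoter window in the RefSeq table of GRCm38.p6, 9 windows in all. The 250 bases before the listed transcription start are printed for the 4 genes that rose most after infarction, 5′ to 3′ on the gene's strand. Capitals of 5 bases mark matches on either strand to the core CAGAC, which Smad proteins bind. Capitals that start with TATA mark the TATA-box core TATAAA. The printed Gdf15 window is chr8:70632457-70632706 (minus strand), the Inhba window chr13:16011601-16011850 (plus strand), the Tgfb2 window chr1:186705990-186706239 (minus strand) and the Ltbp2 window chr12:84876492-84876741 (minus strand). A further Gdf15 window, chr8:70632096-70632345 (minus strand), is not printed. The Inhba and Tgfb2 windows lie inside the span of their genes, and the Gdf15 and Ltbp2 windows overlap the edge of theirs, since the listed starts are not the outermost ones.
Gdf15: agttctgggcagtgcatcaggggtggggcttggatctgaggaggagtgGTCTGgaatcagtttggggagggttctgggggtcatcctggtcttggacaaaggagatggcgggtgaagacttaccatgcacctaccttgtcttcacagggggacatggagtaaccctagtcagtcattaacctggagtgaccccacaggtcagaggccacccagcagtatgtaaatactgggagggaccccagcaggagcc
Inhba: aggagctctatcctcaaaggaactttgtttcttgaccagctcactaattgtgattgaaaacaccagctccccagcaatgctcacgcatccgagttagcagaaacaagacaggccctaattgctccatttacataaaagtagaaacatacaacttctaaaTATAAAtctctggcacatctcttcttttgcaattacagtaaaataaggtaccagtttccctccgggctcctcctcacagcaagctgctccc
Tgfb2: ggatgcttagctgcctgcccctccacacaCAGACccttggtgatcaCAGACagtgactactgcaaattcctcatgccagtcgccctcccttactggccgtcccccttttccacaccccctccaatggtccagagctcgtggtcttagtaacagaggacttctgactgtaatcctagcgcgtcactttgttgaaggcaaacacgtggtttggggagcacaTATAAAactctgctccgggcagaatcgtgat
Ltbp2: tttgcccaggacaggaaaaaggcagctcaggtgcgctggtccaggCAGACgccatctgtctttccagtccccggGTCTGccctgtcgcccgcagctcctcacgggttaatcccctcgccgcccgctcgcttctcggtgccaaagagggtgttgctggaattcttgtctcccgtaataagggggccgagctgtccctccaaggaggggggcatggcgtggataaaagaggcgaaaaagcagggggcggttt
CAGAC was found on either strand at -221 and -204 of the Tgfb2 start, at -205 and -176 of the Ltbp2 start and at -202 of the Gdf15 start printed here. The further Gdf15 window holds it at -116 of its own start, and no copy lies in the Inhba window. TATAAA was found at -31 in Tgfb2 and at -91 in Inhba. Such short motifs are common: of 32817 windows of the same length, 42.2% hold CAGAC and 12.4% hold TATAAA on at least 1 strand. The AP-1 core TGANTCA, in 6.75% of all windows, the CRE core TGACGTCA, in 1.55%, and the C/EBP-ATF composite core TGATGNAA, in 3.45%, had no match in the 9 windows. These matches describe letters and were not tied to binding.

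Estimated depth was 10200000 to 13000000 reads in MI_DCA libraries, 11150000 to 13950000 in MI_vehicle libraries and 9700000 to 10850000 in sham_vehicle libraries. Markers of heart tissue were present: the summed level of 12 cardiomyocyte markers was 35192 to 65977 FPKM in MI_DCA hearts, 35768 to 61236 FPKM in MI_vehicle hearts and 61127 to 71714 FPKM in sham_vehicle hearts, with none at 0. The infarcted hearts differed widely in markers of infarct stress. Nppa, the atrial natriuretic peptide gene, had 375, 2975, 483, 2965, 656 and 2527 FPKM in MI_DCA hearts 1 to 6, against 7037, 4234, 3139, 771, 2903 and 4431 FPKM in MI_vehicle hearts 1 to 6 and 136 to 440 FPKM in sham_vehicle hearts. MI_DCA hearts 1, 3 and 5 and MI_vehicle heart 4 thus lay nearest to sham in this marker. Each of the results below was computed on all 6 hearts of a group, and the same hearts are named where they stand apart. Bulk tissue cannot tell fewer cells of a type from less RNA per cell. Since no label says that the 6 libraries of a group are 6 different mice, each p reflects the spread among libraries, which may be technical.

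Per length, Tgfb1 had the highest mean FPKM of the 9 genes in each group and Tgfbr2 the next. The libraries were captured by hybridisation, so the order of different genes may also depend on how well each was captured. In MI_DCA hearts the mean levels ran Tgfb1 (43.8 ± 13.4 FPKM, SD, n = 6), Tgfbr2 (24.8 ± 3.81), Tgfb2 (20.2 ± 17.1), Tgfb3 (12.7 ± 3.7), Gdf15 (8.95 ± 9.38), Tgfbr3 (8.44 ± 2.89), Tgfbr1 (5.91 ± 1.29), Inhba (3.63 ± 3.81) and Ltbp2 (3.02 ± 2.42), and every pair of neighbours overlapped. In MI_vehicle hearts they ran Tgfb1 (60.1 ± 16.9 FPKM), Tgfbr2 (26.8 ± 2.59), Tgfb2 (24.9 ± 16.3), Tgfb3 (20.9 ± 11.1), Gdf15 (18.8 ± 14.4), Inhba (7.72 ± 4.19), Tgfbr3 (7.41 ± 1.6), Tgfbr1 (6.84 ± 1.4) and Ltbp2 (6.51 ± 4.34), and Tgfb1 and Tgfbr2 were the sole neighbours that did not overlap. In sham_vehicle hearts they ran Tgfb1 (25.8 ± 1.97 FPKM), Tgfbr2 (21.1 ± 2.46), Tgfbr3 (11 ± 1.33), Tgfb3 (9.01 ± 1.26), Tgfbr1 (4.67 ± 0.348), Tgfb2 (4.49 ± 0.524), Gdf15 (1.2 ± 0.559), Ltbp2 (0.707 ± 0.294) and Inhba (0.328 ± 0.222). There the hearts did not overlap between Tgfbr2 and Tgfbr3, between Tgfb3 and Tgfbr1 or between Tgfb2 and Gdf15, and the other neighbours did.

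**Figure D1:**
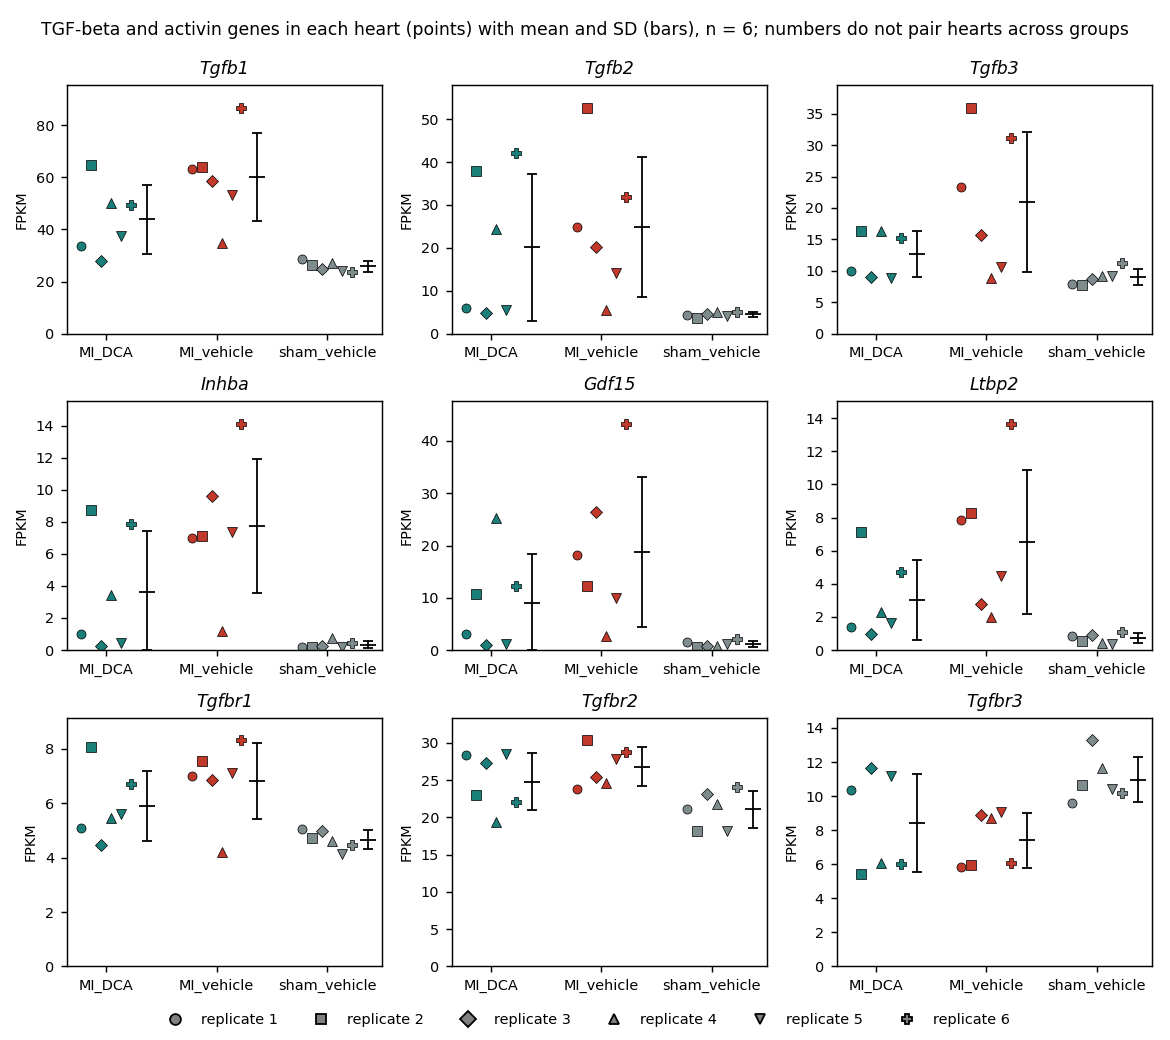
Level of each of the 9 genes in FPKM (y axis, linear, from 0) in every heart, by group, with the mean and SD beside the points (n = 6; an SD bar that would pass below 0 ends at 0). Gdf15 and Inhba averaged 8.95 and 3.63 FPKM in MI_DCA hearts, 18.8 and 7.72 FPKM in MI_vehicle hearts, and 1.2 and 0.328 FPKM in sham_vehicle hearts.

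After infarction with vehicle the ligand genes Tgfb1, Tgfb2, Tgfb3 and Gdf15, together with Ltbp2, Tgfbr1 and Tgfbr2, were called higher than in sham_vehicle hearts, and Tgfbr3 was called lower. Inhba was also past the threshold, but no sham_vehicle heart had it at 1 FPKM or more, so it met the filter on low values only through the infarcted hearts and is left out of the counts here. Gdf15 and Ltbp2 stay in, though only 3 and 1 of the 6 sham_vehicle hearts had them at 1 FPKM or more. The infarcted hearts alone were enough to bring both past that filter, so the counts lean on where these 2 genes are high. The test was limma on log2(FPKM + 1), and calls were made where the p adjusted by Benjamini-Hochberg over all 11969 genes tested was under 0.05. Of those genes 58.4% were called, 38.3% higher and 20.1% lower. The median log2 fold change was 1.06 over the 8 genes without Inhba and 0.12 over all genes tested. Ranges of the 2 groups did not overlap for 5 of these 8, Tgfb1, Tgfb2, Ltbp2, Gdf15 and Tgfbr3, against 21.8% of all genes tested. Because the genes were chosen with earlier results of these data known, the values of all genes beside theirs are a description only.

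Tgfb1, the ligand made by most cell types including macrophages and platelets, had a lowest, median and highest level of 34.6, 60.9 and 86.7 FPKM in MI_vehicle hearts, against 23.7, 25.7 and 28.6 FPKM in sham_vehicle hearts. Every MI_vehicle heart lay above every sham_vehicle heart, and the log2 fold change was 1.14 (SE 0.16, limma adjusted p = 0.000173). Tgfb2, a ligand that binds the type II receptor poorly without betaglycan, had 24.8, 52.7, 20.3, 5.46, 14.1 and 31.8 FPKM in MI_vehicle hearts 1 to 6, against 3.7 to 5.08 FPKM in sham_vehicle hearts. The groups did not overlap, but MI_vehicle heart 4 was only just above the highest sham_vehicle heart, and the log2 fold change was 1.97 (SE 0.37, adjusted p = 0.000833). Tgfb3, the third mammalian isoform, had 23.4, 36, 15.6, 8.81, 10.6 and 31.1 FPKM in MI_vehicle hearts 1 to 6, against 7.82 to 11.2 FPKM in sham_vehicle hearts. It was above all sham_vehicle hearts in 4 of 6, with hearts 4 and 5 inside the sham range, and rose by 0.97 on the log2 scale (SE 0.29, adjusted p = 0.0106).

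Inhba, which encodes the subunit of activin A, had 6.97, 7.1, 9.61, 1.21, 7.34 and 14.1 FPKM in MI_vehicle hearts 1 to 6, against 0.16 to 0.74 FPKM in sham_vehicle hearts. Every MI_vehicle heart lay above every sham_vehicle heart, and an estimated 20 to 291 reads in MI_vehicle libraries and 2 to 11 in sham_vehicle libraries stand behind these values. Its log2 fold change was 2.53 (two-sided exact permutation p = 0.00216, the smallest possible) on the log2(FPKM + 1) scale, which understates changes at such low levels: with a pseudocount of 0.1 it was 4.03. Gdf15 had 18.1, 12.2, 26.3, 2.76, 10.0 and 43.3 FPKM in MI_vehicle hearts 1 to 6, against 0.58 to 2.1 FPKM in sham_vehicle hearts. This gave a log2 fold change of 2.83 (SE 0.45, adjusted p = 0.000317), and again heart 4 was the lowest MI_vehicle heart and still above every sham_vehicle heart. Ltbp2, whose product binds elastic-fibre microfibrils and, unlike the other latent TGF-beta binding proteins, does not bind latent TGF-beta, had 7.85, 8.25, 2.79, 2, 4.49 and 13.7 FPKM in MI_vehicle hearts 1 to 6, against 0.39 to 1.09 FPKM in sham_vehicle hearts. The groups did not overlap, and Ltbp2 rose by 1.95 on the log2 scale (SE 0.32, adjusted p = 0.000377), with 1 sham_vehicle heart at 1 FPKM or more. The low sham levels matter for Gdf15 and Ltbp2 too: with a pseudocount of 0.1 their changes were 3.54 and 2.83.

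The receptors had smaller log2 fold changes than the ligands. Tgfbr1 had a lowest, median and highest level of 4.2, 7.05 and 8.32 FPKM in MI_vehicle hearts, against 4.12, 4.67 and 5.07 FPKM in sham_vehicle hearts, and 5 of 6 MI_vehicle hearts lay above all sham_vehicle hearts (log2 fold change 0.45, SE 0.12, limma adjusted p = 0.0061). Tgfbr2 had 23.7, 26.6 and 30.4 FPKM in MI_vehicle hearts, against 18.2, 21.5 and 24.1 FPKM in sham_vehicle hearts, with 1 MI_vehicle heart inside the sham range (0.33, SE 0.09, adjusted p = 0.00656). The Tgfbr2 call depends on scaling: with median-ratio scaling the change was 0.20 (adjusted p = 0.0604) and with quantile normalization 0.19 (adjusted p = 0.0768). Those scalings shift the median of all genes by -0.12 and -0.15 in this comparison, and quantile normalization brought Tgfbr1 to 0.26 (adjusted p = 0.0393). Tgfbr3 went the other way, with 5.86, 7.37 and 9.05 FPKM in MI_vehicle hearts, against 9.58, 10.5 and 13.3 FPKM in sham_vehicle hearts. All 6 MI_vehicle hearts were below all sham_vehicle hearts, and Tgfbr3 fell by 0.52 on the log2 scale (SE 0.12, adjusted p = 0.00289).

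Several cell-type markers moved in the same comparison, where 38.3% of all genes tested were called higher and 20.1% lower. All 11 markers of infiltrating monocytes and macrophages rose, with a summed level of 466 to 1143 FPKM in MI_vehicle hearts and 228 to 394 FPKM in sham_vehicle hearts. All 7 tested of 11 neutrophil markers rose, with sums over the 11 of 61.6 to 404 FPKM in MI_vehicle hearts and 11.3 to 41.7 FPKM in sham_vehicle hearts. In sham_vehicle hearts 6 of the 11 averaged under 1 FPKM, so some of the tested ones met the filter only with the help of infarcted hearts. Of 6 platelet markers 2 were tested and both rose, and of 12 cardiomyocyte markers 10 fell and 1, Actc1, rose. Of 12 fibroblast markers 4 rose and 6 fell, with sums of 711 to 1170 FPKM in MI_vehicle hearts and 1337 to 1638 FPKM in sham_vehicle hearts. Other lists were mixed: 2 rose and 4 fell of 10 endothelial markers, and 3 rose and 4 fell of 10 smooth muscle and pericyte markers. Among 8 tested resident macrophage markers 1 rose and 2 fell. None of these markers was at 0 in every heart of either group. Their part in the changes of the 9 genes was not tested.

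The make-up of the TGF-beta ligand transcripts is a description with no test, and it too compares FPKM between captured genes. The summed level of Tgfb1, Tgfb2 and Tgfb3 was 76.6 ± 33 FPKM in MI_DCA hearts, 106 ± 40.7 FPKM in MI_vehicle hearts and 39.3 ± 1.69 FPKM in sham_vehicle hearts. Tgfb2 made up 10.7% to 39.6% of it in MI_DCA hearts, 11.2% to 34.5% in MI_vehicle hearts and 9.72% to 12.7% in sham_vehicle hearts. Tgfb1 remained the largest share on average, 60.4 ± 10% in MI_DCA hearts, 59.6 ± 10.3% in MI_vehicle hearts and 65.7 ± 4.01% in sham_vehicle hearts. The share of Tgfb3 averaged 17.5 ± 3.15% in MI_DCA hearts, 18.9 ± 3.6% in MI_vehicle hearts and 22.9 ± 3.15% in sham_vehicle hearts.

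**Figure D2:**
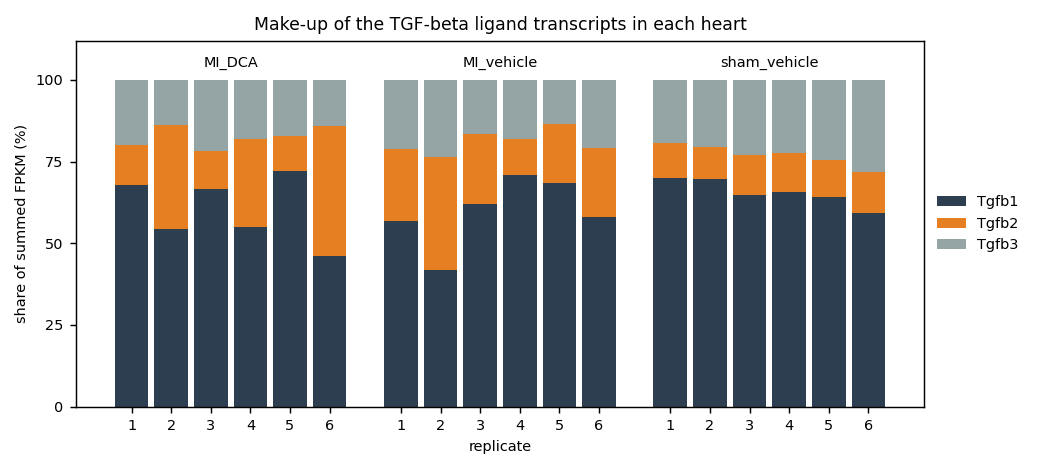
Share of Tgfb1, Tgfb2 and Tgfb3 in their summed FPKM (y axis, percent) in each of the 18 hearts, by group and replicate. Tgfb2 takes 10.7% to 39.6% in MI_DCA hearts, 11.2% to 34.5% in MI_vehicle hearts and 9.72% to 12.7% in sham_vehicle hearts.

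Some of these genes have several transcripts. Of 3 transcripts listed for Tgfb2, the leading one held 62.5% of the gene's summed FPKM in MI_DCA hearts, 70.9% in MI_vehicle hearts and 40.2% in sham_vehicle hearts. For Ltbp2, with 4 transcripts, the leading one held 90.9%, 92.6% and 75.8% in MI_DCA, MI_vehicle and sham_vehicle hearts, and for Inhba, with 5 listed and 4 above 0, it held 68.5%, 70.7% and 60.9%. Estimates for transcripts from short single reads share most of their reads, so these shares carry an error that the files do not give.

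Given DCA after infarction, none of the 9 genes passed the test against MI_vehicle hearts, and neither did any of the 12004 genes tested (0%). At an unadjusted p under 0.05 limma gave 1299 genes, 192 higher and 1107 lower in MI_DCA hearts, and none of the 9 was among them. No range of the 9 was separate between the groups, against 0.541% of all genes tested. The estimates were below 0 for 8 of the 9 genes and for 64.8% of all genes tested, with a median log2 fold change of -0.51 over the 9 and -0.06 over all. The spread within MI_DCA hearts was wide for most of these genes, as the values below show.

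Gdf15 had 3.15, 10.7, 1.06, 25.3, 1.09 and 12.3 FPKM in MI_DCA hearts 1 to 6, against 2.76 to 43.3 FPKM in MI_vehicle hearts. Hearts 3 and 5 given DCA lay below every MI_vehicle heart and the other 4 within their range (log2 fold change -1.24, 95% interval -2.79 to 0.31, limma adjusted p = 0.517, exact permutation p = 0.156). Inhba had 1, 8.74, 0.25, 3.46, 0.44 and 7.88 FPKM in MI_DCA hearts 1 to 6, against 1.21 to 14.1 FPKM in MI_vehicle hearts, with hearts 1, 3 and 5 below every MI_vehicle heart (-1.18, interval -2.46 to 0.09, adjusted p = 0.47, exact permutation p = 0.102). Ltbp2 had 1.37, 7.13, 0.99, 2.29, 1.62 and 4.74 FPKM in MI_DCA hearts 1 to 6, against 2 to 13.7 FPKM in MI_vehicle hearts, and the same hearts were lowest (-0.88, interval -1.82 to 0.05, adjusted p = 0.465, exact permutation p = 0.0974).

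Among the TGF-beta ligands, Tgfb1 had 33.8, 64.6, 27.8, 50.1, 37.4 and 49.2 FPKM in MI_DCA hearts 1 to 6, against 34.6 to 86.7 FPKM in MI_vehicle hearts (log2 fold change -0.45, interval -0.94 to 0.04, limma adjusted p = 0.476, exact permutation p = 0.0996). Tgfb2 had 6.02, 37.9, 4.84, 24.5, 5.54 and 42.1 FPKM in MI_DCA hearts 1 to 6, a gap with no heart between 6.02 and 24.5 FPKM, against 5.46 to 52.7 FPKM in MI_vehicle hearts. The Tgfb2 estimate was -0.51 with an interval of -1.86 to 0.85 (adjusted p = 0.727, exact permutation p = 0.47), which covers changes in both directions. Tgfb3 had 9.99, 16.4, 9.1, 16.4, 8.89 and 15.2 FPKM in MI_DCA hearts 1 to 6, against 8.81 to 36 FPKM in MI_vehicle hearts (-0.56, interval -1.26 to 0.14, adjusted p = 0.521, exact permutation p = 0.158). All 6 MI_DCA hearts lay within the MI_vehicle range for Tgfb3, and hearts 1, 3 and 5 were the 3 lowest for each of these ligands.

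For the receptor genes Tgfbr2 and Tgfbr3 the order of hearts differed from that of the ligands. Tgfbr3 had 10.3, 5.43, 11.6, 6.09, 11.2 and 5.99 FPKM in MI_DCA hearts 1 to 6, against 5.86 to 9.05 FPKM in MI_vehicle hearts, so hearts 1, 3 and 5 were above every MI_vehicle heart (log2 fold change 0.13, interval -0.30 to 0.56, limma adjusted p = 0.776, exact permutation p = 0.539). Tgfbr2 had 28.4, 23.0, 27.3, 19.4, 28.6 and 22.1 FPKM in MI_DCA hearts 1 to 6, against 23.7 to 30.4 FPKM in MI_vehicle hearts. Hearts 2, 4 and 6 given DCA, which were the 3 highest for all 5 ligands and Ltbp2, were below every MI_vehicle heart for Tgfbr2, and the group difference was -0.12 (interval -0.35 to 0.11, adjusted p = 0.647, exact permutation p = 0.299). Tgfbr1 had 4.48, 5.54 and 8.06 FPKM as lowest, median and highest level in MI_DCA hearts, against 4.2, 7.05 and 8.32 FPKM in MI_vehicle hearts (-0.18, interval -0.51 to 0.15, adjusted p = 0.622, exact permutation p = 0.275). Its levels in MI_DCA hearts 1 to 6 were 5.1, 8.06, 4.48, 5.45, 5.62 and 6.72 FPKM, with hearts 2 and 6 highest and hearts 1 and 3 lowest.

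The calls changed when libraries were weighted. With limma's array weights, which give less weight to libraries far from their group's fit, 7 of the 9 genes were called lower in MI_DCA hearts, all but Tgfbr2 and Tgfbr3. In the same fit 44.7% of all genes tested were called, 31.2% lower and 13.5% higher. Gdf15 was then lower by a log2 fold change of -2.42 (limma adjusted p = 0.00732), Inhba by -2.22 (adjusted p = 0.006) and Tgfb2 by -1.48 (adjusted p = 0.0162). In that fit MI_DCA hearts 1, 3 and 5 had weights of 2.47, 1.66 and 2.5, MI_DCA hearts 2, 4 and 6 had 0.275, 0.592 and 0.312, and MI_vehicle heart 4 had 0.357, so the MI_DCA hearts with low ligand levels carried most of their group's weight. Those are also the MI_DCA hearts with low Nppa, and the summed level of 6 infarct stress markers was 2156 to 11823 FPKM in MI_DCA hearts, 3756 to 15456 FPKM in MI_vehicle hearts and 959 to 2622 FPKM in sham_vehicle hearts. Summed markers of infiltrating monocytes and macrophages were 277 to 826 FPKM in MI_DCA hearts and 466 to 1143 FPKM in MI_vehicle hearts, and those of neutrophils 44.8 to 194 and 61.6 to 404 FPKM in MI_DCA and MI_vehicle hearts, with Camp at 0 in every MI_DCA heart. The part of infarct stress and of these cells in this comparison was not tested.

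**Figure D3:**
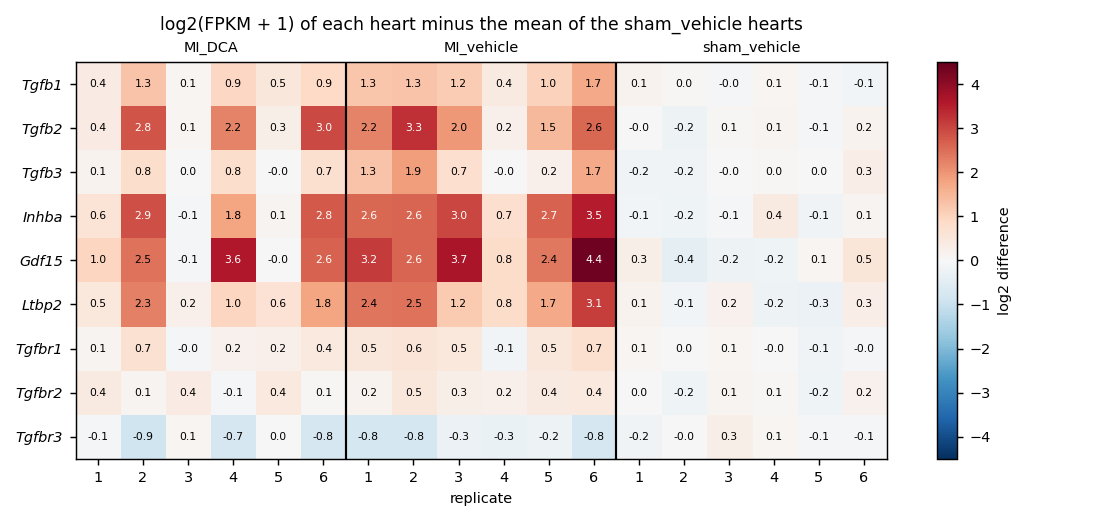
Difference on the log2(FPKM + 1) scale of each heart from the mean of the 6 sham_vehicle hearts for the 9 genes (rows), with hearts as columns by group and replicate; red is above and blue below sham. MI_DCA hearts 1, 3 and 5 and MI_vehicle heart 4 are palest, and Tgfbr3 is the row with the most blue.

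The heart-by-heart view shows how far each infarcted heart was from sham. The number of the 9 genes that lay inside the range of the 6 sham_vehicle hearts was 2, 1, 8, 1, 4 and 1 in MI_DCA hearts 1 to 6, against 1, 0, 0, 2, 1 and 0 in MI_vehicle hearts 1 to 6. MI_DCA heart 3 was inside the sham range for all but Tgfbr2. MI_vehicle heart 4 was the lowest of its group for Tgfb1, Tgfb2, Tgfb3, Tgfbr1, Ltbp2, Inhba and Gdf15.

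Set against sham_vehicle hearts, MI_DCA hearts had 3 of the 8 genes tested called, all higher: Tgfb1, Tgfb2 and Ltbp2. Of the 8, Gdf15 and Ltbp2 met the filter mainly through the infarcted hearts, with 3 and 1 sham_vehicle hearts at 1 FPKM or more. Of 11842 genes tested 23.8% were called, 15.5% higher and 8.33% lower, and the median log2 fold change was 0.55 over the 8 genes and 0.05 over all. The sham_vehicle hearts are the same libraries as in the comparison of MI_vehicle with sham, so the 2 comparisons are not independent. In each of the 3 called genes 5 of 6 MI_DCA hearts lay above all sham_vehicle hearts, heart 3 being the exception. Ranges that did not overlap were found for 0 of the 9 genes, against 9.15% of all genes tested.

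Tgfb1 was higher by a log2 fold change of 0.69 (SE 0.17, limma adjusted p = 0.0185), Tgfb2 by 1.46 (SE 0.49, adjusted p = 0.047) and Ltbp2 by 1.06 (SE 0.30, adjusted p = 0.0291). For the same genes the values of MI_vehicle minus sham_vehicle were 1.14, 1.97 and 1.95. Gdf15 had an estimate of 1.60 (SE 0.56) that missed the threshold (adjusted p = 0.0538), with 4 of 6 MI_DCA hearts above all sham_vehicle hearts. Tgfb3 (0.41, adjusted p = 0.0756), Tgfbr1 (0.27, adjusted p = 0.0866), Tgfbr2 (0.22, adjusted p = 0.148) and Tgfbr3 (-0.39, adjusted p = 0.111) were not called by limma. Their exact permutation p, not adjusted, was 0.0563, 0.0281, 0.0801 and 0.106 in the same order, and that of Gdf15 was 0.0325. Inhba was below the filter on low values, with 4 MI_DCA hearts and no sham_vehicle heart at 1 FPKM or more; its difference of 1.35 on the log2(FPKM + 1) scale had a two-sided exact permutation p of 0.0216, where the smallest possible is 0.00216.

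The Tgfb1 call held in all 19 alternatives, with log2 fold changes of 0.45 to 0.81. The Tgfb2 call was kept in 4 of 19: its log2 fold change stayed at 1.15 to 1.49 in 14 of the fits that lost it (limma adjusted p 0.0518 to 0.101), and with array weights it was 0.52 (adjusted p = 0.201). The Ltbp2 call was lost without MI_DCA heart 4 or 6 or sham_vehicle heart 2, 4 or 5, with log2 fold changes of 0.92 to 1.08 (limma adjusted p 0.0514 to 0.0636). It was kept at 1.70 with a pseudocount of 0.1 (adjusted p = 0.0219) and at 0.61 with array weights (adjusted p = 0.0277). Leaving out a heart moved the members' calls and those of all genes together. Without MI_DCA heart 3, 7 of the 8 were called, 6 higher and 1 lower, beside 34.8% of all genes tested, and without MI_DCA heart 5, 5 were called beside 27.9%. A single gene of the 8 was called without MI_DCA heart 4 or 6 (11.6% and 10.2% of all genes) or without sham_vehicle heart 2, 4 or 5 (10.8%, 14.1% and 8.95%).

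Cell-type markers also differed between MI_DCA and sham_vehicle hearts, where 15.5% of all genes tested were called higher and 8.33% lower. Of 11 markers of infiltrating monocytes and macrophages 9 rose, with sums of 277 to 826 FPKM in MI_DCA hearts and 228 to 394 FPKM in sham_vehicle hearts. All 7 tested of 11 neutrophil markers rose, with sums of 44.8 to 194 FPKM in MI_DCA hearts and 11.3 to 41.7 FPKM in sham_vehicle hearts. Here too some of the 7 met the filter only with the help of infarcted hearts, since 6 of the 11 averaged under 1 FPKM in sham_vehicle hearts. Of 12 fibroblast markers 1 rose and 7 fell, with sums of 566 to 1251 FPKM in MI_DCA hearts and 1337 to 1638 FPKM in sham_vehicle hearts, and of 12 cardiomyocyte markers 5 fell. The part of these cell types in the Tgfb1, Tgfb2 and Ltbp2 differences was not tested.

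**Figure D4:**
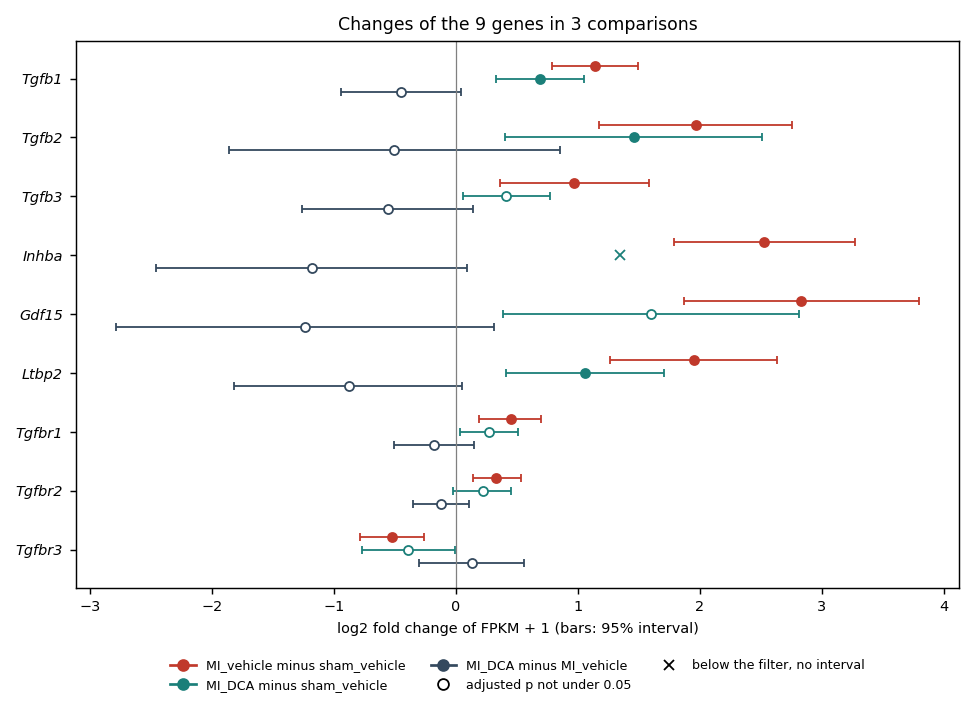
Log2 fold change of FPKM + 1 with its 95% interval (x axis) for the 9 genes in the 3 comparisons; filled points passed an adjusted p under 0.05, open ones did not, and the cross marks Inhba below the filter. All 9 red points (MI_vehicle minus sham_vehicle) are filled, 3 of the 8 tested green points (MI_DCA minus sham_vehicle) are filled and every dark point (MI_DCA minus MI_vehicle) is open. The red point of Inhba is left out of the counts in the text, since that gene met the filter only through the infarcted hearts.

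Other genes of the pathway were grouped by role into 6 lists, also chosen with earlier results of these data known. None of these lists had a gene called between MI_DCA and MI_vehicle hearts without weights. With array weights, beside 31.2% of all genes called lower and 13.5% higher, MI_DCA hearts had 8 genes lower and 1 higher of 13 in the latent complex list, 1 lower and 1 higher of 9 other receptors, and 10 lower of 13 Smad genes. In the same fit they had 3 lower and 1 higher of 5 activin and antagonist genes, 18 lower of 19 TGF-beta target genes and 8 lower of 10 stress response genes. Examples are Timp1 at -2.09 (limma adjusted p = 0.006), Fstl3 at -1.96 (adjusted p = 0.00831), Mmp14 at -1.28 (adjusted p = 0.006) and Pmepa1 at -1.02 (adjusted p = 0.00711). Of the 13 tested genes in the latent complex list, 8 rose and 3 fell in MI_vehicle hearts against sham_vehicle hearts, with a median of 0.67. Among all genes tested 38.3% rose and 20.1% fell, with a median of 0.12. Against the same sham hearts MI_DCA hearts had 6 higher and 2 lower, with a median of 0.33. The share of all genes was 15.5% higher and 8.33% lower, with a median of 0.05. Ltbp4 fell by 0.77 in MI_vehicle hearts (limma adjusted p = 0.00102), while Ltbp1 (-0.05) and Ltbp3 (0.09) were not called. Thbs1, the thrombospondin that frees TGF-beta from its propeptide, averaged 12.3 ± 9.44 FPKM in MI_DCA hearts, 23 ± 10.9 FPKM in MI_vehicle hearts and 1.61 ± 0.324 FPKM in sham_vehicle hearts, and it was higher by 3.07 in MI_vehicle and 2 in MI_DCA hearts against sham on the log2 scale (limma adjusted p = 1.37e-05 and 0.013). It is also one of the monocyte and macrophage markers above. Nrros, which tethers latent TGF-beta on macrophages and microglia, rose by 1.42 in MI_vehicle (adjusted p = 2.06e-05) and 0.82 in MI_DCA hearts (adjusted p = 0.0105), and the membrane protease gene Mmp14 by 1.67 (adjusted p = 0.000348) and 0.93 (adjusted p = 0.0301). With array weights the Mmp14 difference of MI_DCA hearts from sham was 0.52 (adjusted p = 0.0645).

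Changes of the 8 other tested receptors and co-receptors were small, with 4 higher and 2 lower in MI_vehicle hearts against sham (median 0.18). None was called in MI_DCA hearts against sham (median 0.12). Of all genes tested, 38.3% were called higher and 20.1% lower in MI_vehicle hearts (median 0.12). In MI_DCA hearts 15.5% were called higher and 8.33% lower (median 0.05). Bambi, a decoy receptor without a kinase domain, rose by 0.45 (limma adjusted p = 0.00877) and the type I receptor gene Acvr1 by 0.34 (adjusted p = 0.00197), while the activin type II receptor gene Acvr2b fell by 0.41 (adjusted p = 0.0151). With quantile normalization Bambi was at 0.28 (adjusted p = 0.0931) and Acvr1 at 0.17 (adjusted p = 0.0578), below the threshold. Among 13 Smad transducers and feedback genes 10 rose and none fell in MI_vehicle hearts (median 0.28). The changes of Smad2, Smad3 and Smad4 there were 0.23, 0.26 and 0.16 (limma adjusted p = 0.0203, 0.0434 and 0.0468). Median-ratio scaling and quantile normalization shift the median of all genes by -0.12 and -0.15 in that comparison. Tgif1 and Pmepa1 were the 2 called in MI_DCA hearts against sham (median 0.10). Pmepa1, a TGF-beta-induced gene whose product sequesters Smads, averaged 26.8 ± 13.1 FPKM in MI_DCA hearts, 35.4 ± 12.3 FPKM in MI_vehicle hearts and 13.6 ± 1.49 FPKM in sham_vehicle hearts, a rise of 1.23 in MI_vehicle (adjusted p = 0.000602) and 0.79 in MI_DCA hearts (adjusted p = 0.0458). The Pmepa1 call in MI_DCA hearts against sham was lost with no filter, with either scaling, with all 18 libraries in 1 fit and with the replicate block, at 0.72 to 0.79 (limma adjusted p 0.054 to 0.0704), and with array weights, at 0.31 (adjusted p = 0.194). The Smad corepressor genes Tgif1 and Skil rose by 1.21 (adjusted p = 0.000246) and 0.62 (adjusted p = 0.00065) in MI_vehicle hearts.

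Activin, inhibin and their antagonists had 5 of 12 listed genes tested, 3 higher and 1 lower in MI_vehicle hearts against sham, with a median of 0.94. The share of all genes tested was 38.3% higher and 20.1% lower, with a median of 0.12. Fstl3, which binds and neutralises activin, averaged 37.7 ± 30.7 FPKM in MI_DCA hearts, 56 ± 28.6 FPKM in MI_vehicle hearts and 4.4 ± 1.37 FPKM in sham_vehicle hearts, and was higher against sham by 3.21 in MI_vehicle (limma adjusted p = 7.04e-05) and 2.34 in MI_DCA hearts (adjusted p = 0.0182). Inhbb, which encodes the subunit of activin B, rose by 1.71 in MI_vehicle hearts (adjusted p = 0.00214) and was not called in MI_DCA hearts against sham (0.67, adjusted p = 0.131). Igsf1 fell by 1.11 in MI_vehicle hearts (adjusted p = 0.00637). An activin subunit gene and an activin antagonist gene were thus both higher in MI_vehicle hearts than in sham_vehicle hearts, in separate tests.

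Of 19 tested TGF-beta target genes 16 rose and none fell in MI_vehicle hearts against sham, with a median of 1.45 against 0.12 for all genes. The share of all genes called was 38.3% higher and 20.1% lower there. It was 15.5% higher and 8.33% lower in MI_DCA hearts against sham. In MI_DCA hearts against sham 6 rose, with a median of 0.64, and between MI_DCA and MI_vehicle hearts the median was -0.74 with none called without weights. Timp1, an inhibitor of matrix metalloproteinases, averaged 168 ± 123 FPKM in MI_DCA hearts, 354 ± 194 FPKM in MI_vehicle hearts and 20.8 ± 5.38 FPKM in sham_vehicle hearts, and rose by 3.83 in MI_vehicle (limma adjusted p = 2.1e-05) and 2.63 in MI_DCA hearts against sham (adjusted p = 0.00511). The matrix gene Tnc (tenascin C) rose by 3.70 and 2.31 in MI_vehicle and MI_DCA hearts against sham (adjusted p = 2.56e-05 and 0.0186).

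Of 10 stress response genes, transcription factors such as Atf4 and Trp53 and targets of theirs, 8 rose and 1, Chac1, fell in MI_vehicle hearts against sham (median 0.95), and 5 rose in MI_DCA hearts against sham (median 0.75). The share of all genes called was 38.3% higher and 20.1% lower in MI_vehicle hearts (median 0.12). In MI_DCA hearts it was 15.5% higher and 8.33% lower (median 0.05). Atf3, a stress-induced transcription factor gene, averaged 12.8 ± 8.81 FPKM in MI_DCA hearts, 15.8 ± 6.7 FPKM in MI_vehicle hearts and 2.27 ± 0.757 FPKM in sham_vehicle hearts. Both groups of infarcted hearts lay wholly above the sham_vehicle hearts for Atf3 (2.24 in MI_vehicle, limma adjusted p = 0.00015; 1.84 in MI_DCA, adjusted p = 0.0116). The immediate early gene Egr1 rose by 1.66 (adjusted p = 0.000164) and the asparagine synthetase gene Asns, a target of Atf4, by 1.60 (adjusted p = 0.000264) in MI_vehicle hearts.

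**Figure D5:**
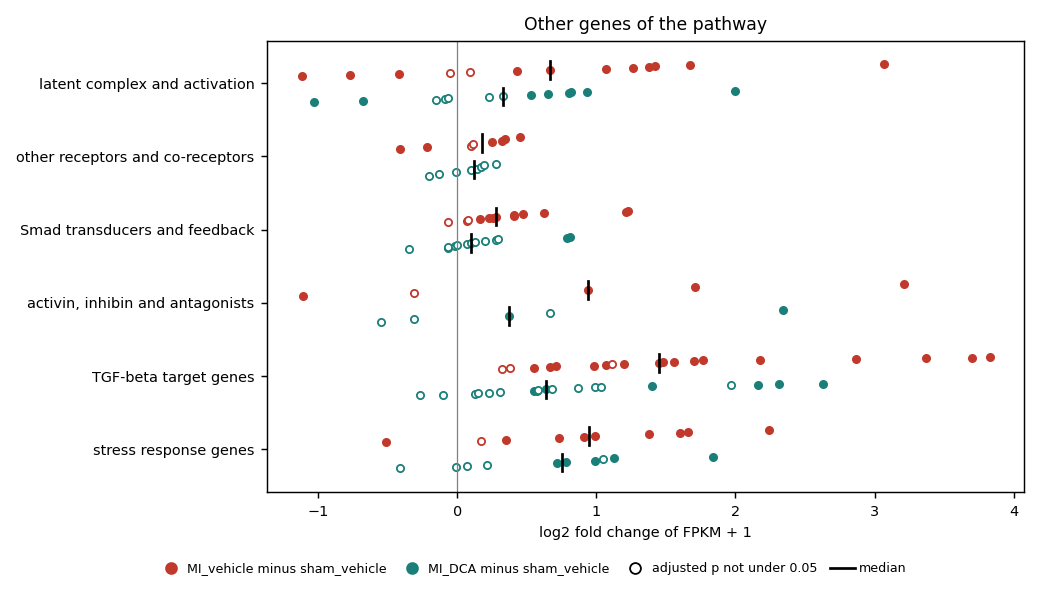
Log2 fold change of FPKM + 1 (x axis) of each tested gene in 6 lists of pathway genes, MI_vehicle minus sham_vehicle in red and MI_DCA minus sham_vehicle in green; filled points passed an adjusted p under 0.05 and black bars are medians. The TGF-beta target genes have the largest medians in MI_vehicle hearts, 1.45, and the stress response genes in MI_DCA hearts, 0.75.

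Over the 12 infarcted hearts the 9 genes fell into more than 1 pattern. The genes with the most similar levels, by Pearson's correlation of log2(FPKM + 1) over these 12 libraries among 12003 genes, were Sh2b2 (0.990), Timp1 (0.989) and Btaf1 (0.983) for Inhba. For Gdf15 they were Chst1 (0.966), Adamts4 (0.960) and Itpkc (0.959), for Tgfb1 Micall2 (0.990), Gm39701 (0.989) and Spred3 (0.986), for Tgfb2 Ipo5 (0.995), Ftsj3 (0.991) and Wdr1 (0.991), and for Ltbp2 Rrm2 (0.980), Txlna (0.974) and Lig1 (0.972). Tgfb3 was nearest to Arfgap1 (0.960), Usp4 (0.958) and Ddx19a (0.956), and Tgfbr1 to Vat1 (0.986), Clcn5 (0.983) and Abi1 (0.977). Tgfbr3 was nearest to Gsta3 (0.986), Myoc (0.979) and Gm46430 (0.978), and Tgfbr2 to Boc (0.902), Mxra8 (0.897) and Ankrd44 (0.896). These coefficients describe libraries that share a tissue, a surgery and a spread of infarct stress, and they carry no p.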

How the data were processed

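Per the labels, RNA was extracted with Trizol from the apex of perfused, frozen hearts, made into RNA Access libraries, which capture coding transcripts by hybridisation, and sequenced on a BGISEQ-500 (single end, 50 bases). Bowtie2 2.2.5, RSEM 1.2.12, DESeq2 1.4.5 and GRCm38.p6 are listed, without their roles, in the submitters' processing notes. The authors deposited 1 value per gene for 19197 genes and 1 per transcript for 64405 transcripts in each of 18 libraries. These deposited values are FPKM with 2 decimals, a unit the file headers do not name: the sum of value times transcript length varied with a coefficient of variation of 0.71% between libraries, against 3.09% for the sum of values. The values carry no counts, so the spacing of low values in 518 genes with a single transcript, searched between 8000000 and 16000000 reads, gave the depth estimates, and errors are spreads between hearts. Of the gene identifiers 99.2% matched the RefSeq table of GRCm38.p6, and 26 symbols that were missing or had the form of a date were replaced from it.

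Groups follow the tissue and treatment labels. The 3 comparisons were fitted separately, with 12 libraries each and no covariate, by limma 3.58.1 (R 4.3.3, trend on mean level) on log2(FPKM + 1) for genes at 1 FPKM or more in at least 6 of the 12, and called at an adjusted p under 0.05. An exact permutation test (two-sided, 924 regroupings) was run on single genes, for genes above the filter as a setting added after seeing the data. The fit was tested on simulated data. Replicate numbers were checked for pairing, and no block was used. Alternatives were a pseudocount of 0.1, no filter, median-ratio scaling, quantile normalization, all 18 libraries in 1 fit, a replicate block, array weights and leaving out each library. Each member was named in every comparison, and of each pathway list up to 3 called genes with the largest change after infarction. One gene that this rule picks is not reported here. The members and lists were chosen with earlier results of these data known. Pearson correlations of libraries within a group were 0.925 to 0.993, and no pair was identical.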

Additional observations from a re-analysis of the deposited data

Results flagged for a closer look

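Within a group of 6 hearts, a value was looked at again where the highest or lowest heart stood apart from the nearest other by more than Dixon's critical share of the group's range. Over 27 genes in 3 groups, 81 sets of 6 hearts in all, 3 stood out, and chance alone does this in about 1 in 20 groups. Tgfbr1 had 4.2 FPKM in MI_vehicle heart 4, the lowest of its group, with the next heart at 6.84 FPKM. Nrros had 18.7 FPKM in MI_DCA heart 2, the highest of its group, with the next heart at 11.5 FPKM. Inhbb had 0.77 FPKM in sham_vehicle heart 4, the lowest of its group, with the next heart at 1.05 FPKM.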

How the results depend on the processing

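For MI_vehicle against sham_vehicle hearts 9 members (Inhba included) were called in every fit that left out 1 heart, and 8 with median-ratio scaling or quantile normalization, which lost Tgfbr2. All genes called numbered 6991, with 65.6% of them higher; the higher share was 49.6% with median-ratio scaling and 46.3% with quantile normalization, and leaving out 1 heart gave 6167 to 7817. For MI_DCA against MI_vehicle hearts array weights gave 7 members and 5370 genes, against none in the other fits except 1 gene without MI_vehicle replicate 5 (0 to 1 over the fits leaving out a heart), and the estimate of Tgfbr2 was 0.03 (limma adjusted p = 0.797), against -0.12 without weights. For MI_DCA against sham_vehicle hearts 3 members and 2817 genes were called; leaving out 1 heart gave 1 to 7 members and 1060 to 4119 genes. Of the genes called there 65% were higher, against 49.1% with median-ratio scaling and 45.6% with quantile normalization. With array weights Acvr2b was at 0.08 in that comparison (limma adjusted p = 0.648), against -0.20 without. The cause of these changes was not tested. No pairing of hearts by replicate number was seen, though with 6 hearts per group this check cannot exclude it. Correlations of deviations from the group means were -0.05 to 0.14 for MI_vehicle with sham_vehicle, -0.44 to 0.69 for MI_DCA with MI_vehicle and -0.09 to 0.22 for MI_DCA with sham_vehicle. In each, 1 of 6 hearts correlated best with its own number. With the replicate block 1696 genes were called for MI_DCA against sham_vehicle hearts, and 9, 0 and 2 members for MI_vehicle against sham_vehicle, MI_DCA against MI_vehicle and MI_DCA against sham_vehicle hearts. The exact permutation p of Inhba was 0.0216 on either scale. Depth limits Inhba most, with an estimated 4 to 168 reads in MI_DCA libraries, 20 to 291 in MI_vehicle libraries and 2 to 11 in sham_vehicle libraries.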
